A study of Mus musculus with 6 samples.

Results

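The genes described are the 10 that encode the subunits of hypoxia-inducible factor (HIF) and the enzymes and adaptor that couple it to oxygen. They were taken by gene name from a count table of 53801 genes, and all 10 were found. The table holds RNA-seq counts of PDPN+PDGFRα+ stromal cells sorted from MO5 melanomas, which grow from B16 melanoma cells carrying the ovalbumin gene. The groups compared were Ctrl (genotype DTR-, 3 libraries) and DTR (genotype DTR+, 3 libraries), and mice of both genotypes received diphtheria toxin. DTR mice were ADAM12-DTR mice, in which a bacterial artificial chromosome transgene places tTA and the toxin receptor under the Adam12 promoter, so that the receptor is made in cells that use this promoter. Ctrl mice were littermates without the transgene, all on the C57Bl/6 background and young adults when the tumor cells were implanted. Cells positive for CD45 or CD31 were gated out of the sort. The labels do not say how many animals gave each library, so the p-values below measure the spread between libraries, which may in part be technical.

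HIF is a pair of bHLH-PAS proteins, an oxygen-labile alpha subunit (Hif1a, Epas1 or Hif3a) and a constitutive beta subunit (Arnt or Arnt2). When oxygen is present, prolyl hydroxylases (Egln1, Egln2 and Egln3, also called PHDs) hydroxylate prolines of the alpha subunit, the adaptor Vhl binds the hydroxylated form, and the ubiquitin ligase it recruits sends the subunit to the proteasome. Hif1an (FIH) hydroxylates an asparagine and thereby keeps transcriptional coactivators away. Hypoxia therefore acts on HIF chiefly through protein stability, which transcript counts do not show, whereas Egln1 and Egln3 are themselves known HIF target genes and respond at the transcript level.

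Between 22339635 and 34271929 reads per library lay on genes, and 15133 genes had enough counts to be tested. Levels are given as CPM, read counts scaled to a common library total with TMM factors, and a gene with under 3 counts, which is 0.0872 to 0.132 CPM here, was treated as undetected (counting error only). Adam12, whose promoter drives the transgene, had 216, 181 and 175 CPM in Ctrl and 165, 151 and 112 CPM in DTR (log2 fold change -0.42, adjusted p = 0.602, edgeR). Pdgfra and Pdpn, the sorting markers, were at 42.6 CPM or more in every library. The 8 fibroblast markers summed to between 5152 and 14067 CPM and the 8 melanoma cell markers to between 15233 and 18967 CPM, in groups that overlapped for both, so melanoma cell transcripts were abundant in these libraries. The summed markers were at 12.3 to 80.0 CPM for endothelial cells, 42.6 to 81.5 for mural cells, 102 to 154 for macrophages, 6.90 to 43.6 for T cells, 1.37 to 7.67 for neutrophils and 23.1 to 55.6 for adipocytes, and the groups overlapped for each of these 6 lists. Among the endothelial markers Emcn, Cldn5 and Tie1 had at most 1, 2 and 3 reads in any library, whereas Pecam1 had 64 to 276, Kdr 47 to 272 and Tek 104 to 1426, with Tek and Kdr highest in DTR replicate 3. Lpl made up most of the adipocyte sum (21.6 to 54.1 CPM), whereas Adipoq, Plin1, Cidec and Lep had at most 10, 8, 5 and 6 reads in any library. In bulk libraries fewer cells of a type and less RNA per cell cannot be told apart.

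Of the 10 genes, 9 could be tested, and none of them differed between DTR and Ctrl at an adjusted p under 0.05. The closest to the threshold were Arnt2, the alternative beta subunit, with 3.14-fold more transcript in DTR libraries, and Egln1, the most abundant prolyl hydroxylase, with 29.0% less (percent change -29.0). Over all 15133 genes edgeR's quasi-likelihood test also called 0 (0%) and DESeq2's Wald test called 31 (0.173% of 17923), none of which was one of the 10 genes. An unadjusted p under 0.05 in edgeR was reached by 2 of the 9 genes, against 7.92% of all tested genes. They were Egln1 among the lower (4.11% of all tested genes) and Arnt2 among the higher (3.81%). DESeq2's unadjusted p was also under 0.05 for these 2, against 7.11% of the genes it tested. The groups did not overlap for 4 of the 9, against 14.5% of all tested genes. Hif1a and Egln1 were the lower ones (8.19% of all tested genes) and Arnt2 and Vhl the higher ones (6.3%). Every one of the 9 had at least 10 counts in each library, so none was tested on the strength of 1 group. The log2 fold changes of the 9 genes had a median of -0.037, and the median over all tested genes was -0.0029.

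**Figure D1:**
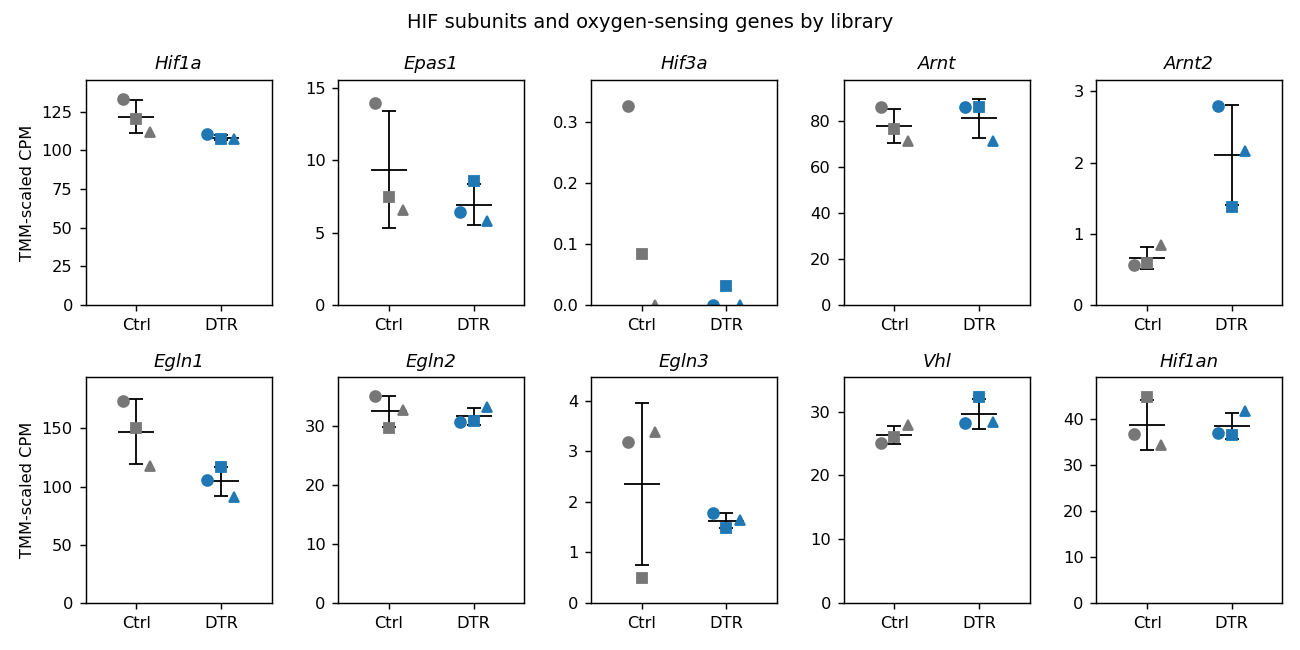
TMM-scaled CPM of the 10 genes in the 3 Ctrl libraries (grey) and the 3 DTR libraries (blue), on axes that start at 0. Circles, squares and triangles are replicates 1, 2 and 3, and bars give the mean ± SD of 3 libraries (none drawn for Hif3a, which had 8 reads or fewer per library). The blue points all lie above the grey ones for Arnt2 and Vhl, and all below them for Hif1a and Egln1.

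Among the alpha subunits Hif1a, the broadly expressed one, dominated. Hif1a (ENSMUSG00000021109, GRCm38 chr12:73901375-73947530, plus strand) had 133, 120.0 and 112 CPM in Ctrl replicates 1, 2 and 3 and 110.2, 107 and 107 CPM in DTR replicates 1, 2 and 3. The DTR libraries lay close together just below the lowest Ctrl library. Means were 122 ± 10.9 CPM (SD, n = 3) in Ctrl and 108 ± 1.72 CPM (SD, n = 3) in DTR. The log2 fold change was -0.17 (standard error 0.0895, 95% interval -0.38 to 0.037, adjusted p = 0.652, edgeR), so these libraries leave room for a loss of up to 0.38 on the log2 scale and for little gain. Without Ctrl replicate 1 it was -0.099. The two-sided exact permutation test gave p = 0.1, the smallest that 3 against 3 libraries allow.

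Epas1 (ENSMUSG00000024140, chr17:86753700-86833410, plus strand) encodes HIF-2α, best known from endothelial and perivascular cells. Its level was 14.0, 7.45 and 6.57 CPM in Ctrl and 6.45, 8.52 and 5.82 CPM in DTR. Ctrl replicate 1 stood above the other 5 libraries, which overlapped. The log2 fold change was -0.42 (standard error 0.316, 95% interval -1.15 to 0.30, adjusted p = 0.731, edgeR; exact permutation p = 0.5), and without Ctrl replicate 1 it was -0.014. That library also had the highest summed level of the mural markers (81.5 CPM, against 42.6 to 68.2 CPM in the other 5), whose part in the Epas1 values was not tested. Mcam made up most of that sum, with 46.4 CPM in Ctrl replicate 1, but was higher in Ctrl replicate 3 (49.7 CPM). Hif3a (ENSMUSG00000004328, chr7:17031507-17062427, minus strand), an alpha subunit with isoforms that restrain the others, had 8, 2 and 0 reads in Ctrl and 0, 1 and 0 in DTR. It was above the 3-count floor in Ctrl replicate 1 alone and was too low to test.

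Levels of different genes were compared as CPM per kilobase of annotated exon. On that scale Hif1a made up 89.9% to 94.6% of the summed alpha subunit transcripts in the 6 libraries, and Epas1 5.42% to 9.91%. The within-library log2 ratio of Hif1a to Epas1 per kilobase was 3.18, 3.93 and 4.01 in Ctrl and 4.02, 3.58 and 4.12 in DTR. These groups overlapped, with a difference of 0.20 (exact permutation p = 0.5, adjusted p = 0.75 over 3 ratios), which became -0.066 without Ctrl replicate 1.

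The beta subunits were far apart in level, with Arnt the abundant one. Arnt (ENSMUSG00000015522, chr3:95434388-95497240, plus strand), the general partner of bHLH-PAS proteins, had 86.0, 76.5 and 71.5 CPM in Ctrl and 86.3, 86.0 and 71.4 CPM in DTR. The groups covered almost the same range. Its log2 fold change was 0.059 (95% interval -0.20 to 0.32, adjusted p = 0.905, edgeR). Arnt2 (ENSMUSG00000015709, chr7:84246278-84410176, minus strand), a close relative best known from neurons, had 14, 14 and 24 reads in Ctrl and 96, 43 and 49 in DTR. In CPM these were 0.571, 0.586 and 0.843 in Ctrl and 2.79, 1.38 and 2.16 in DTR. Every DTR library thus held more than any Ctrl library, and DTR replicate 2 was the nearest to them. Means were 0.667 ± 0.153 CPM (SD, n = 3) and 2.11 ± 0.704 CPM (SD, n = 3), a log2 fold change of 1.65 (standard error 0.446, 95% interval 0.62 to 2.68).

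The difference in Arnt2 had an unadjusted p of 0.00604 and an adjusted p of 0.602 in edgeR, and ranked 126 among the 15133 genes by p. DESeq2's Wald test gave an adjusted p of 0.273. Leaving out single libraries, the log2 fold change of Arnt2 ran from 1.41 to 1.88, and with an offset for genomic span, which is 163899 bases for Arnt2, it was 1.56. Against Arnt in the same library, the log2 ratio per kilobase was -7.13, -6.92 and -6.32 in Ctrl and -4.89, -5.88 and -4.97 in DTR. This ratio does not depend on scaling between libraries, and it was higher in every DTR library by 1.54 on average, a 2.91-fold difference (exact permutation p = 0.1, adjusted p = 0.3 over 3 ratios). Arnt2 nonetheless remained the minor beta subunit, at 0.687% to 1.21% of the pair per kilobase in Ctrl and 1.65% to 3.26% in DTR. The antisense gene Gm30873 shares 214 exon bases with Arnt2 and had 1 read in DTR replicate 1 and 0 elsewhere. The summed fibroblast markers were also higher in DTR replicates 1 and 3 than in DTR replicate 2. They were high in Ctrl replicate 1 too (13597 CPM) and did not separate the groups. Of these markers 8 of 8 had a log2 fold change above 0 (50.4% of all tested genes were below 0), with a median of 0.38. EdgeR called 0 of them, also at an unadjusted p under 0.05, as did DESeq2 by its adjusted p. The part of the fibroblast markers in the Arnt2 values was not tested.

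**Figure D2:**
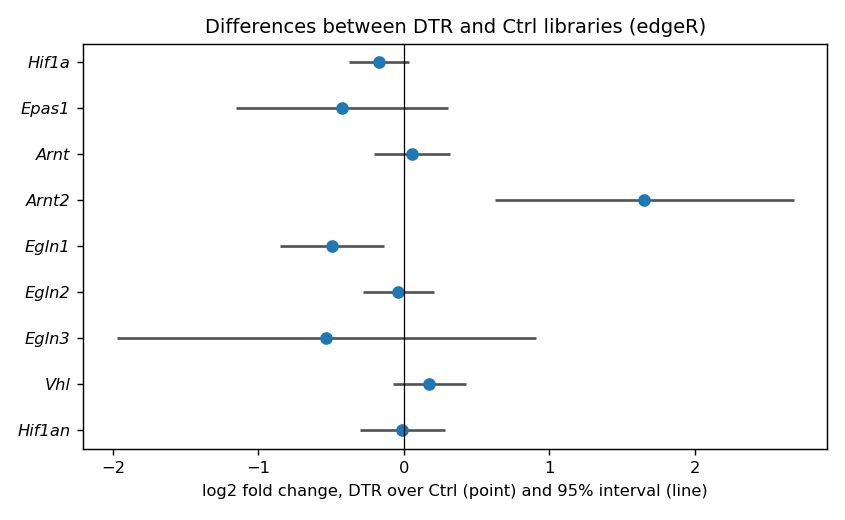
Log2 fold change of DTR over Ctrl (points) with its 95% interval from edgeR's fit (lines) for the 9 genes tested, Hif3a being too low. The interval leaves out 0 for Arnt2 (0.62 to 2.68) and Egln1 (-0.85 to -0.14) before any adjustment for the number of genes.

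Of the prolyl hydroxylases, Egln1 was the most abundant. Egln1 (ENSMUSG00000031987, chr8:124908587-124949324, minus strand) encodes PHD2, the main hydroxylase that sets HIF-1α levels in normoxia. It had 173, 150.4 and 117.7 CPM in Ctrl replicates 1, 2 and 3 and 105, 116.7 and 91.3 CPM in DTR replicates 1, 2 and 3. The Ctrl libraries spread widely and the lowest of them, replicate 3, was barely above the highest DTR library, replicate 2. Means were 147 ± 28.0 CPM (SD, n = 3) in Ctrl and 104 ± 12.7 CPM (SD, n = 3) in DTR. The log2 fold change was -0.49 (standard error 0.154, 95% interval -0.85 to -0.14), with an unadjusted p of 0.0126 and an adjusted p of 0.602 in edgeR and an adjusted p of 0.311 in DESeq2. Leaving out each library in turn gave -0.63 to -0.36, the weakest value being the one without Ctrl replicate 1.

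Egln2 (ENSMUSG00000058709, chr7:27158658-27166802, minus strand), which encodes PHD1 and is not regarded as oxygen-inducible, was level across the libraries, with 35.0, 29.7 and 32.7 CPM in Ctrl and 30.7, 30.9 and 33.3 CPM in DTR. Its log2 fold change was -0.037 (95% interval -0.28 to 0.21, adjusted p = 0.937, edgeR). Egln3 (ENSMUSG00000035105, chr12:54178981-54203860, minus strand), which encodes the strongly hypoxia-inducible PHD3, had 78, 12 and 96 reads in Ctrl and 61, 46 and 37 in DTR, or 3.18, 0.502 and 3.37 CPM against 1.77, 1.48 and 1.63 CPM. Ctrl replicate 2 lay below all DTR libraries and the other 2 Ctrl libraries lay above them. The log2 fold change of -0.53 (standard error 0.624, 95% interval -1.97 to 0.91, adjusted p = 0.833, edgeR; exact permutation p = 1) was therefore poorly determined, and it was -0.26, -1.01 and -0.18 without Ctrl replicates 1, 2 and 3 in turn.

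Per kilobase, Egln1 held 67.0% to 79.5% of the summed prolyl hydroxylase transcripts, Egln2 20.2% to 31.3% and Egln3 0.358% to 2.77%. The share of Egln1 averaged 76.4% in Ctrl and 70.8% in DTR and that of Egln2 22.0% and 27.7%, and the groups overlapped for both shares. The log2 ratio of Egln3 to Egln1 was -5.33, -7.74 and -4.69 in Ctrl and -5.45, -5.85 and -5.36 in DTR, with Ctrl libraries on both sides of the DTR libraries (difference 0.36, exact permutation p = 1, adjusted p = 1 over 3 ratios). The difference became -0.55 without Ctrl replicate 2 and 0.98 without Ctrl replicate 3.

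Promoter stretches are shown for Egln1 and Egln3, the hydroxylase genes known as HIF targets, and for Arnt2, which had the largest fold difference of the 9 genes, because HIF binds the letters ACGTG or GCGTG at hypoxia response elements. They are RefSeq sequences of GRCm38.p6, taken from the 250 bases before each RefSeq start and trimmed to bases outside annotated exons. Each is written 5′ to 3′ on the strand of the gene, with capitals marking ACGTG or GCGTG on either strand. The Egln1 stretch is chr8:124949325-124949504, the Egln3 stretch chr12:54203875-54204124 and the Arnt2 stretch chr7:84410177-84410288, all on the minus strand.
Egln1: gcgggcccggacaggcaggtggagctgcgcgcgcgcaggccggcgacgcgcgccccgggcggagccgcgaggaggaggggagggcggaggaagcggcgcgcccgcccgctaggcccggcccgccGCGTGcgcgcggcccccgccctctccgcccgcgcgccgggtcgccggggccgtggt
Egln3: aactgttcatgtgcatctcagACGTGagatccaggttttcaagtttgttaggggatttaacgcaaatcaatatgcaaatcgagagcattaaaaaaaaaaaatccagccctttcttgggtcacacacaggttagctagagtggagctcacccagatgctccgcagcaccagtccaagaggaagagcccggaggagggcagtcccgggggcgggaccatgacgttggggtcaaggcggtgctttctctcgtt
Arnt2: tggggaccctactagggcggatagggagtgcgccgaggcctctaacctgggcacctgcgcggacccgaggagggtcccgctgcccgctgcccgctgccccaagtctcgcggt

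In the 250 bases before its start Egln1 held GCGTG beginning 126 bases before the start and ACGTG beginning 68 bases before it, the latter within an exon of the GENCODE annotation and so outside the printed stretch. Egln3 held ACGTG beginning 229 bases before the start, and Arnt2 held neither in its 250 bases. At least 1 of these letter sets, on either strand, was present in 38.6% of the 32851 promoters in the RefSeq table (16.6% for ACGTG and 28.2% for GCGTG), so a match is common. Of the 10 genes, 9 had an entry, Epas1 being the exception, and 7 of the 10 entries (Egln2 has 2) held a match. Vhl and Hif1an, like Arnt2, held none in this window. A match says only that the letters are there.

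The remaining members act on the alpha subunit after or beside the prolyl hydroxylases. Vhl (ENSMUSG00000033933, chr6:113623959-113631633, plus strand), the substrate adaptor of the ligase, had 25.1, 25.9 and 27.8 CPM in Ctrl and 28.2, 32.4 and 28.4 CPM in DTR. All DTR libraries were above all Ctrl libraries, by little for replicates 1 and 3. The log2 fold change was 0.17 (standard error 0.109, 95% interval -0.078 to 0.43, adjusted p = 0.687, edgeR). Hif1an (ENSMUSG00000036450, chr19:44562850-44576274, plus strand) had 36.8, 44.8 and 34.3 CPM in Ctrl and 36.9, 36.6 and 41.6 CPM in DTR, with overlapping groups. Its log2 fold change was -0.0099 (95% interval -0.30 to 0.28, adjusted p = 0.986, edgeR), and its sign changed with the scaling.

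**Figure D3:**
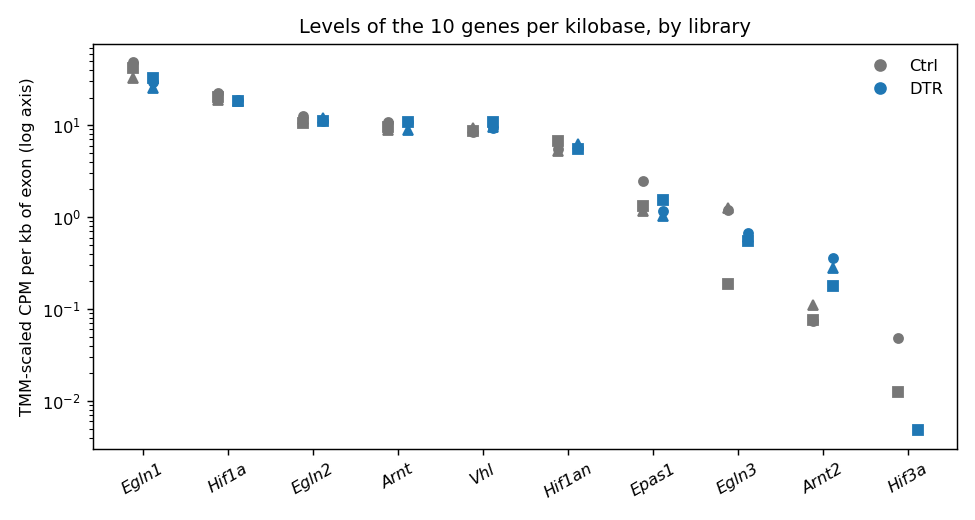
CPM per kilobase of exon, on a log axis, of the 10 genes in order of their mean level, with 3 Ctrl libraries in grey and 3 DTR libraries in blue (circles, squares and triangles for replicates 1, 2 and 3). Libraries without a read cannot be drawn on a log axis, which leaves out 3 of 6 points for Hif3a. Levels run from 48.3 for Egln1 in Ctrl replicate 1 to 0.0048 for Hif3a in DTR replicate 2.

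In order of level per kilobase, Egln1 came first with 25.4 to 48.3 CPM per kilobase over the 6 libraries, followed by Hif1a with 18.2 to 22.6. These ranges did not overlap each other or those of later genes. Egln2 (10.6 to 12.5), Arnt (8.91 to 10.8) and Vhl (8.37 to 10.8) came next, and each overlapped its neighbour. Hif1an followed at 5.20 to 6.78, separate from both neighbours. Epas1 (1.04 to 2.50) overlapped Egln3 (0.189 to 1.27), which overlapped Arnt2 (0.0743 to 0.363). Hif3a, at no more than 0.0486, was lowest and did not overlap Arnt2. Transcripts of the main sensor (Egln1), the main alpha subunit (Hif1a), the main beta subunit (Arnt) and the adaptor (Vhl) were thus all detected at 615 reads or more in every library, whereas Epas1, Egln3, Arnt2 and Hif3a were minor in these libraries. The melanoma cell markers summed to more CPM than the fibroblast markers in every library, and their part in the values of the 10 genes was not tested. Of the 8 melanoma cell markers 6 had a log2 fold change below 0 (50.4% of all tested genes) and 2 above, and edgeR called 0.

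The library values of Egln1 were set beside those of 12 other HIF target genes, a list chosen with the results of these data known. Of these, edgeR called 0 (5 had an unadjusted p under 0.05, against 7.92% of all tested genes) and DESeq2's Wald test called 1, Car9 (0.173% of all genes it tested), while 11 had a log2 fold change below 0 and 1 above (50.4% of all tested genes were below 0), 4 had non-overlapping groups, all lower in DTR (8.19% of all tested genes), and the median was -0.29. They ran from Car9, a carbonic anhydrase (-1.23, adjusted p = 0.602 in edgeR and 0.000214 in DESeq2), to Adm, the vasodilator peptide adrenomedullin (0.029, adjusted p = 0.986, edgeR). Averaged over the 12 genes, log2 CPM minus the mean of the 6 libraries was 0.48, 0.094 and -0.024 in Ctrl replicates 1, 2 and 3 and -0.15, -0.11 and -0.29 in DTR replicates 1, 2 and 3. For Egln1 the deviations were 0.50, 0.29 and -0.063 in Ctrl and -0.22, -0.075 and -0.43 in DTR. Both were highest in Ctrl replicate 1 and lowest in DTR replicate 3. The summed mural markers were likewise highest in Ctrl replicate 1 (81.5 CPM) and lowest in DTR replicate 3 (42.6 CPM). Of these 8 markers 6 were tested, and 5 of the 6 had a log2 fold change below 0. Mcam made up most of the sum, with 46.4 CPM in Ctrl replicate 1 and 27.8 CPM in DTR replicate 3. Rgs5 had 26 reads or fewer per library and Kcnj8 16 or fewer, and none of the 8 was at 0 in every library. The part of the mural markers in the Egln1 values was not tested. Egln3 had 0.90, -1.71 and 0.99 in Ctrl and 0.063, -0.19 and -0.050 in DTR, and so did not share that order.

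**Figure D4:**
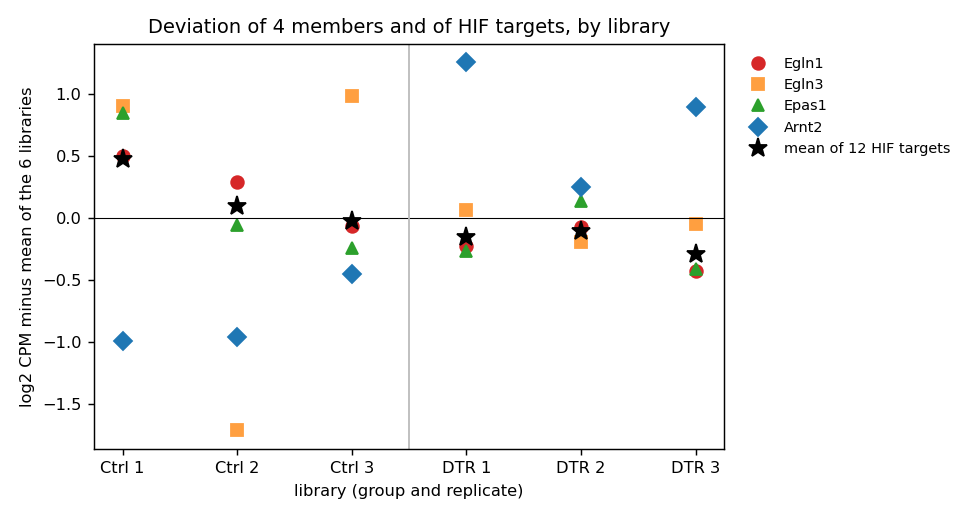
Log2 CPM minus the mean of the 6 libraries for Egln1, Egln3, Epas1 and Arnt2 and, as stars, the mean over 12 HIF target genes, by library. Egln1 and the stars are highest in Ctrl 1 (0.50 and 0.48) and lowest in DTR 3 (-0.43 and -0.29), Egln3 is lowest in Ctrl 2 (-1.71), and Arnt2 is above 0 only in the DTR libraries.

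The other genes of the pathway were taken from lists and are given by counts. The list of Vhl ligase partners holds 6 genes, the elongins Elob and Eloc, the scaffold Cul2, the ring protein Rbx1, the modifier Nedd8 and the deubiquitinase Usp20. All 6 were tested and neither edgeR (0 at an unadjusted p under 0.05, against 7.92% of all tested genes) nor DESeq2 called any. Of the 6, 3 were lower and 3 higher (50.4% of all tested genes were lower), with a median log2 fold change of -0.037. They ran from Usp20 at -0.33 to Cul2 at 0.26. The groups did not overlap for Eloc alone, higher in DTR (6.3% of all tested genes), with a log2 fold change of 0.19. Of 14 HIF cofactors and factors of Vhl-independent turnover 13 were tested and 0 called by edgeR or DESeq2. In edgeR 3 of the 13 had an unadjusted p under 0.05, against 7.92% of all tested genes. Of the 13, 8 were lower and 5 higher (50.4% of all tested genes were lower), with a median of -0.094. The groups did not overlap for 4 of these, all lower in DTR (8.19% of all tested genes), namely Rack1, Hsp90ab1, Stub1 and Os9, with log2 fold changes of -0.22, -0.26, -0.30 and -0.24. Stub1, an ubiquitin ligase that works with chaperones, was the lowest of the list (84.4, 85.4 and 81.3 CPM in Ctrl and 77.5, 65.5 and 61.0 CPM in DTR, adjusted p = 0.602, edgeR), and Siah1a, a ligase that targets the prolyl hydroxylases, the highest at 0.27.

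Of 11 other bHLH-PAS factors, which share the dimerization domain of Arnt and Arnt2, 8 were tested and 0 called by edgeR or DESeq2. In edgeR 2 of the 8 had an unadjusted p under 0.05, against 7.92% of all tested genes. Of the 8, 2 were lower and 6 higher (50.4% of all tested genes were lower), with a median log2 fold change of 0.28. Arntl2, a paralog of the clock factor Arntl, had 1.10, 0.795 and 1.40 CPM in Ctrl and 3.02, 3.35 and 2.51 CPM in DTR, so that all DTR libraries lay above all Ctrl libraries. Its log2 fold change of 1.42 (standard error 0.363, unadjusted p = 0.00448, adjusted p = 0.602, edgeR) was the highest of the list, and Npas1 was the lowest at -0.86 with overlapping groups. Ahr, the dioxin receptor, and Clock, the circadian factor, also had non-overlapping groups, higher in DTR (6.3% of all tested genes), at 0.55 and 0.14. Of 12 other 2-oxoglutarate oxygenases, which use oxygen as the prolyl hydroxylases do, all were tested and 0 called by edgeR or DESeq2. In edgeR 2 of the 12 had an unadjusted p under 0.05, against 7.92% of all tested genes. Of the 12, 4 were lower and 8 higher (50.4% of all tested genes were lower), with a median of 0.020. They ran from Kdm4b, a histone demethylase, at -0.28 to P4htm, a transmembrane prolyl hydroxylase, at 0.42.

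**Figure D5:**
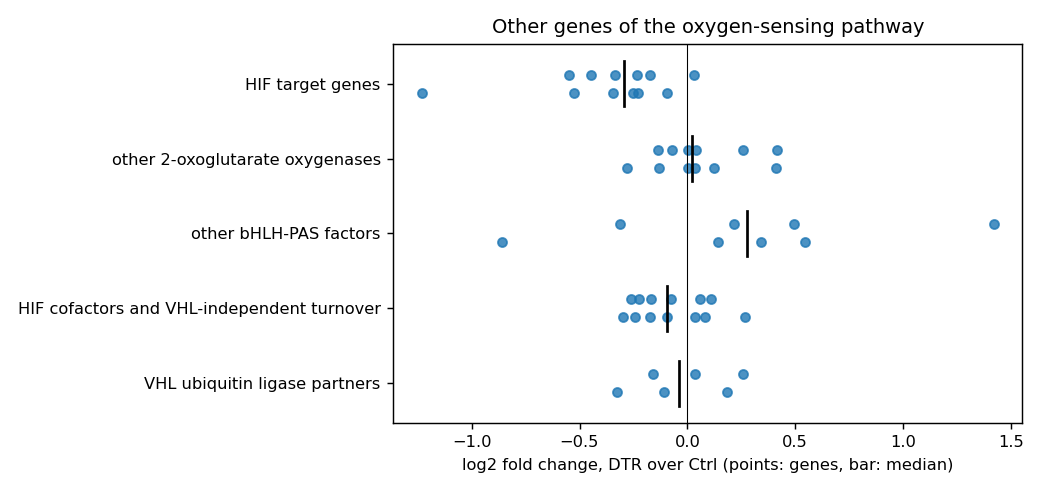
Log2 fold change of DTR over Ctrl for each tested gene of 5 lists (points) and the median of each list (bars). The medians are -0.29 for HIF target genes, 0.020 for other 2-oxoglutarate oxygenases, 0.28 for other bHLH-PAS factors, -0.094 for HIF cofactors and -0.037 for Vhl ligase partners, and edgeR called no gene of these lists, while DESeq2 called Car9.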

How the data were processed

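RNA-seq libraries of total RNA (SMARTer Stranded Total RNA-Seq Pico v2 kit) came from 3 Ctrl and 3 DTR samples, grouped by the genotype in their titles. Per the labels and the methods, the authors trimmed reads with cutadapt 3.4, aligned them to GRCm38 with STAR 2.7.3a and counted them per gene and by strand with featureCounts 2.0.1. The authors deposited raw counts, used here as they are. Their size-factor-scaled counts and their own DESeq2 comparison (fold changes, p-values, dispersions) were not used. How reads with several alignments were counted is not given in the sources used here.

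Genes were kept by filterByExpr (minimum count 10, minimum total 15), scaled with TMM factors and tested by edgeR's quasi-likelihood F-test (two-sided), without covariates, with Benjamini-Hochberg adjustment over all 15133 genes and a threshold of 0.05. A standard error is the size of the log2 fold change divided by the root of its F value. Exact permutation tests enumerated all 20 assignments of group labels. Ratios had 0.5 added to each count. Exon lengths, spans and coordinates are from GENCODE M21 of GRCm38, promoters from RefSeq. DESeq2 1.42.0, other scalings and filters, robust moderation, a replicate block, a loess offset for genomic span (span 0.5) and leaving out each library were alternatives. The steps were tested on simulated counts. Software was edgeR 4.0.16 and limma 3.58.1 under R 4.3.3, and Python 3.11.15.

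The 10 genes and the lists were chosen with earlier results of these data known. Named beside the 10 genes are Adam12, Pdgfra and Pdpn, the lowest and highest gene of each list, and the 3 genes whose log2 CPM correlate best with Hif1a, Epas1 and Egln3. Other genes were named after their values were seen.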

Additional observations from a re-analysis of the deposited data

How the results depend on the processing

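None of the 9 genes was called under any of the 14 alternatives, among which the lowest adjusted p of any of them was 0.273 (Arnt2, DESeq2). Over all genes DESeq2's Wald test called 31, and leaving out each library gave 0 to 2 calls, the 2 calls being those without Ctrl replicate 1. At an unadjusted p under 0.05, 1199 genes passed in edgeR. The log2 fold changes of Hif1a, Epas1, Arnt, Arnt2, Egln1, Egln3 and Vhl kept their sign in all 14. That of Hif1an turned to 0.00066 with DESeq2-type size factors, 0.024 with library size alone and 0.0047 with the span offset, and lay between -0.085 and 0.11 on leaving out single libraries. That of Egln2 lay between -0.098 and 0.020 on the same removals, the positive value being without Ctrl replicate 1. Leaving out libraries moved Epas1 from -0.62 to -0.014, Egln3 from -1.01 to -0.18, the log2 ratio difference of Hif1a to Epas1 from -0.066 to 0.36 and that of Egln3 to Egln1 from -0.55 (without Ctrl replicate 2) to 0.98. Same-numbered libraries did not deviate together in all pairs (correlations of 0.10, 0.13 and -0.027), so the numbers were not treated as pairs. Differently numbered libraries had correlations of -0.20 to 0.094, so those of replicates 1 and 2 were the highest. With the replicate number as a block there were again 0 calls, and the log2 fold changes were 1.62 for Arnt2, -0.48 for Egln1 and -0.22 for Egln3. The standard error for Egln1 was 0.105 with the block and 0.154 without it. At 12 to 96 reads per library, the values of Egln3 and Arnt2 rest on few reads as well as on few libraries.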

Other observations

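An antisense gene at the Hif1a locus, Gm15283, shares 330 exon bases with Hif1a on the opposite strand. It had 58, 26 and 66 reads in Ctrl and 93, 75 and 76 in DTR, with every DTR library above every Ctrl library, as for 6.3% of all tested genes (log2 fold change 0.55, standard error 0.389, 95% interval -0.35 to 1.44, adjusted p = 0.720, edgeR). Reads were counted by strand. The gene Gm49321, which shares 148 exon bases with Hif1a on the same strand, was not analysed here.

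The 3 genes whose log2 CPM followed Hif1a most closely over the 6 libraries were Sars (r = 0.990), Mex3d (r = 0.985) and Zfp35 (r = 0.976). For Epas1 they were Yrdc (0.983), the collagen prolyl hydroxylase subunit P4ha1 (0.974), itself one of the 12 HIF target genes, and Selenoo (0.972), and for Egln3 they were Dhx29 (0.982), Gm12481 (0.980) and Clptm1l (0.976). With 6 libraries, 104, 48 and 104 genes reached r of at least 0.9 with Hif1a, Epas1 and Egln3, so these names describe these libraries only.

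Among the oxygenases, Kdm6a, a histone H3 demethylase, and Tet2, a methylcytosine dioxygenase, had non-overlapping groups, higher in DTR (6.3% of all tested genes). Kdm6a had 42.1, 35.9 and 42.6 CPM in Ctrl and 49.7, 61.9 and 48.8 CPM in DTR (log2 fold change 0.41, adjusted p = 0.602, edgeR), and Tet2 had 61.9, 57.6 and 61.3 CPM in Ctrl and 66.8, 79.7 and 69.4 CPM in DTR (0.26, adjusted p = 0.604, edgeR). They were named after their values were seen.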
